A study of Homo sapiens with 16 samples.

Results

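Sucrose gradients sort RNA by the size of the particle it travels in, and the last fractions of a polysome gradient usually hold mRNAs that carry many ribosomes. The 4 libraries described here are fractions 7 and 8, the 2 highest numbers, of an untreated and of an arsenite-treated gradient. They were chosen by their labels and are 4 of the 16 libraries of the series. The cells were 293S, an established human embryonic kidney line, in both groups. The control group received no treatment and the treated group had 1 mM sodium arsenite for 30 minutes. With 1 library for each treatment and fraction, the differences have no replicate check, and p-values are not given. For each of 13148 genes the deposited value is the part of that gene's total over the 8 fractions of a gradient that lay in a given fraction, and the sum over fractions 7 and 8 is called the heavy share, in percent. A share says how an mRNA was spread along a gradient and nothing about how much of it the cells held, so the 293S label cannot be checked by marker levels. The read depth behind a share is unknown.

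A ribosome covers a short stretch of coding sequence, so a long open reading frame can carry more ribosomes than a short one when both are translated at the same density. Arsenite reacts with thiols, activates an eIF2 alpha kinase and lowers the rate of initiation, after which ribosomes run off mRNAs and the polysomes shrink. A small set of mRNAs with upstream reading frames, such as those of ATF4 and PPP1R15A, is known for being translated in that state. Which gradient end was fraction 1 is not in the labels. In the control the heavy share rose with coding length, as described below.

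Without stress the median heavy share was 10.1% (quartiles over genes 6.10% and 19.6%), and with arsenite it was 2.28% (quartiles 1.51% and 3.18%). The heavy share was lower with arsenite for 12706 genes (96.6%), higher for 421 and equal for 21. The median gene had 20.5% of its control heavy share with arsenite. Fraction 7 had the larger part in both gradients. Its median share was 7.76% without and 1.47% with arsenite, and that of fraction 8 was 2.28% and 0.789%. The Spearman correlation, taken over genes that are no independent replicates, between fractions 7 and 8 was 0.77 without and 0.69 with arsenite, and that between the control and arsenite heavy shares was 0.47 (n = 13148). The size of the common fall depends on the scaling between fractions, and the sources used here do not give it. When median-of-ratios size factors set the typical gene alike in every library, the median heavy share was 21.1% in control cells and 23.0% in treated cells, and the median log2 ratio rose by 1.75. Genes and lists are therefore compared below with all genes of the same gradient.

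**Figure D1:**
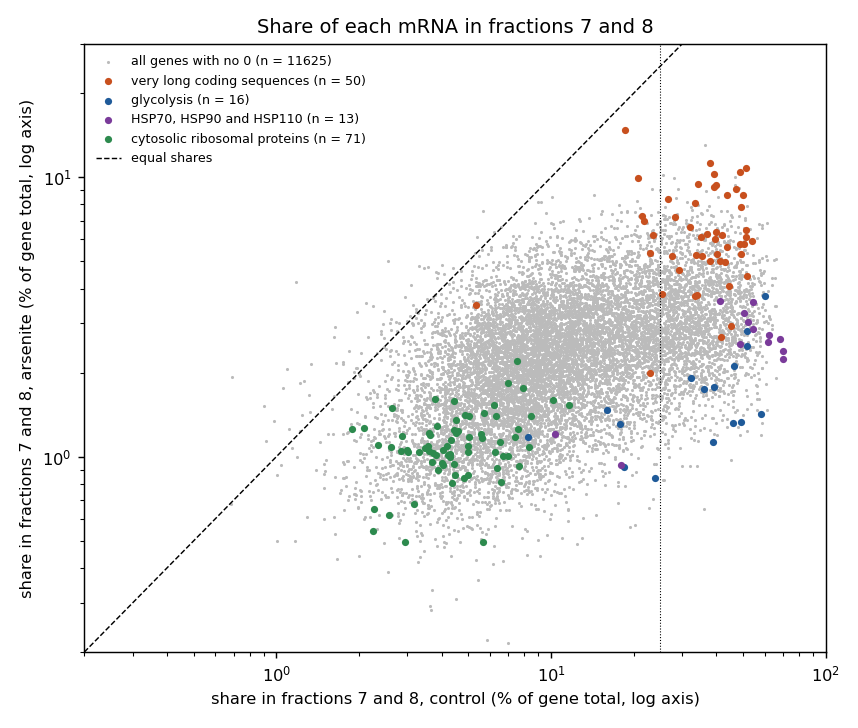
Heavy share (fractions 7 and 8, percent of the gene's total, log axes) in the control on the x axis and with arsenite on the y axis, for the 11625 genes with no value of 0 in any of the 16 libraries. The dashed line marks equal shares and the dotted line 25% in the control. The mRNAs with very long coding sequences (orange) lie high at the right, and those of glycolytic enzymes (blue) lie lower at similar control shares.

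An even spread over 8 fractions puts 25% in these 2 fractions. In the control 2347 genes (17.9%) reached that value, and 234 of them reached 50%. With arsenite 1 gene did, EPPK1, an epithelial plakin. It had shares of 24.6% and 18.3% in control fractions 7 and 8 and 17.1% and 8.48% in the arsenite libraries, and it was listed at 0 in 2 of the 16 libraries. Among genes with no 0 in any of the 16 libraries, GTF2B at 24.988% and PRICKLE1 lay nearest to the 25% threshold on the outside. They had 2.14% and 4.54% with arsenite. Nearest on the inside were RERE at 25.005% and CUX1 at 25.009%, with 2.73% and 6.93% with arsenite.

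The 10 highest control heavy shares among genes with no 0 belonged to HSPA1A, HSPA1B, HSP90AB1, VCP, NAP1L2, UBA1, COL4A1, HNRNPU, MYH14 and COL4A2, from 70.2% to 64.0%. HSPA1A, an inducible HSP70 chaperone, had 57.6% of its total in control fraction 7 and 12.53% in control fraction 8, and 1.44% and 0.944% in the arsenite libraries. Its nearly identical copy HSPA1B had 55.7%, 14.5%, 1.35% and 0.885%, and reads could be shared between them, so both values are uncertain. HSP90AB1, the constitutive cytosolic HSP90, had 49.2% and 19.2% in the control and 1.66% and 0.970% with arsenite. VCP, the ATPase that extracts ubiquitinated proteins, had 53.0% and 12.9% against 2.25% and 1.20%. UBA1, the main ubiquitin-activating enzyme, had 52.1% and 13.7% against 1.30% and 0.611%. For each of these genes both control libraries lay above both arsenite libraries. COL4A1 and COL4A2, the basement membrane collagen chains, had control heavy shares of 65.2% and 64.0% and arsenite heavy shares of 3.46% and 4.37%. HNRNPU, a nuclear RNA-binding scaffold protein, went from 65.1% to 4.36%.

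Of the 2347 genes with at least 25% in the control, 2280 (97.1%) lost the heavy share, meaning a log2 ratio of arsenite to control of −2 or less after adding 1 percentage point to each, which understates the change of small shares. Over all genes 41.8% did. A high control share makes this limit easier to reach, so the difference between these shares is not a result about the heavy genes. Their median heavy share was 34.9% in the control and 3.11% with arsenite, with a median over genes of 11.3-fold lower. In the same genes the median share of fractions 5 and 6 went from 29.8% to 21.8%, that of fractions 3 and 4 from 23.3% to 46.1% and that of fractions 1 and 2 from 8.09% to 24.0%. When fractions 7 and 8 each had to meet the limit, 950 genes were called lost. With size factors 5283 genes reached 25% in the control and 67 of them were called lost, so this count holds only for the shares as deposited.

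As deposited, 5 of the 2347 genes (0.213%, against 17.1% of all genes) kept the heavy share, with a log2 ratio of −1 or more. With size factors 3842 of 5283 did. A low control share makes this limit easier to reach, so the difference between 0.213% and 17.1% is not a result about the heavy genes. The 5 genes were EPPK1, MCF2, DGKK, PARP14 and GJA5. Their heavy shares were 42.8%, 30.8%, 31.4%, 31.5% and 28.9% in the control and 25.5%, 21.2%, 19.7%, 18.8% and 14.5% with arsenite. All 5 were listed at 0 in 2 to 8 of the 16 libraries, MCF2 in both libraries of fraction 8. None of the 2169 heavy genes with no 0 met this rule. Another 62 genes lay between the 2 limits.

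Among heavy genes with no 0, the 10 with the highest log2 ratio were ZNF460, NSD1, ZFHX4, SYNE2, SPTBN1, GPR98, C10orf12, DOCK9, AHNAK2 and ANKRD11. ZNF460, a zinc finger gene, had 20.3% and 5.26% in control fractions 7 and 8 and 6.99% and 3.17% with arsenite, so its heavy share was 2.51-fold lower. NSD1, a histone H3 methyltransferase, had 20.8% and 7.16% against 7.25% and 2.66%, 2.82-fold lower. ZFHX4, a very large homeodomain and zinc finger protein, had 24.9% and 11.5% against 10.1% and 2.89%, 2.795-fold lower. The nuclear envelope linker SYNE2 went from 26.8% to 8.35%, the spectrin SPTBN1 from 29.1% to 9.07% and AHNAK2 from 38.0% to 11.3%. The 3 folds are below the median of 11.3-fold over the heavy genes, which follows from choosing these genes by their ratio. In ZNF460 and NSD1 arsenite fraction 7 lay above control fraction 8, and in ZFHX4 it lay below it, while arsenite fraction 8 was the lowest of the 4 libraries in all 3 genes.

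The heavy genes with the lowest log2 ratios included EIF3C, SPON1, PKM, JUP, EDARADD, TUBA1A, USP5, UBA1 and CDC25C. EIF3C, a subunit of initiation factor eIF3, had 53.7% and 4.40% in the control and 0.769% and 0.424% with arsenite, which is 48.7-fold lower. It has a near-identical copy in the genome, so its value is uncertain. PKM, the pyruvate kinase of glycolysis, had 51.6% and 6.58% against 0.852% and 0.572%, 40.9-fold lower. TUBA1A, an alpha-tubulin, had 41.0% and 4.26% against 0.529% and 0.449% and was 46.3-fold lower. UBA1, described above, went from 65.8% to 1.92%, and the deubiquitinase USP5 from 56.2% to 1.48%. CDC25C, the phosphatase that triggers mitosis, went from 48.9% to 1.20%. In these 9 genes all 4 shares were ordered alike, with control fraction 7 highest, control fraction 8 next, and the arsenite libraries lowest.

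**Figure D2:**
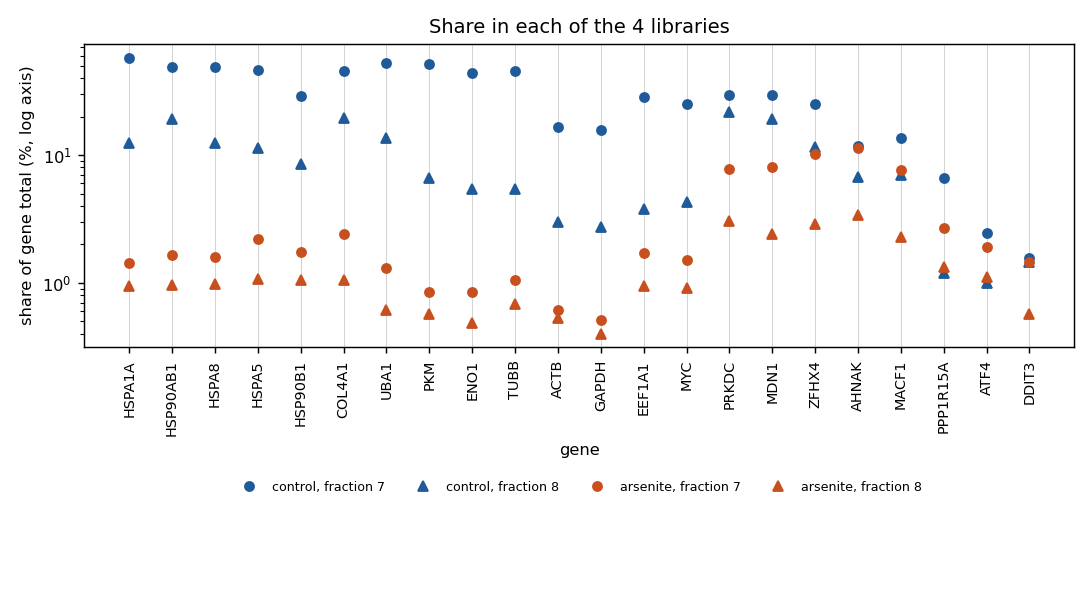
Share of the gene's total (percent, log axis) of 22 genes in control fraction 7 (blue circles), control fraction 8 (blue triangles), arsenite fraction 7 (orange circles) and arsenite fraction 8 (orange triangles), 1 library each. HSPA1A to TUBB stand at 28.8% to 57.6% in control fraction 7 and at 0.852% to 2.41% in arsenite fraction 7, whereas AHNAK stands at 11.8% and 11.4%.

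With arsenite the highest heavy shares among genes with no 0 included those of AHNAK, ZFHX4, AHNAK2, PRKDC, MDN1, ZNF460, AKAP13, MACF1 and KIAA0754, from 14.8% to 9.93%. AHNAK, a giant scaffold protein, had 11.8% and 6.77% in control fractions 7 and 8 and 11.4% and 3.38% in the arsenite libraries. Its fraction 7 shares were nearly alike, and fraction 8 was the lower one with arsenite. PRKDC, the DNA-dependent protein kinase, had 29.4% and 21.8% against 7.76% and 3.04%. MDN1, the giant ATPase of ribosome maturation, had 29.4% and 19.3% against 8.002% and 2.41%. MACF1, a linker of actin and microtubules, had 13.7% and 7.01% against 7.70% and 2.28%. KIAA0754 is listed by RefSeq as another name of MACF1, so the values of these 2 entries may rest on the same reads.

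The arsenite heavy share varied widely among mRNAs with the same control heavy share. AHNAK and ACTB, cytoplasmic beta-actin, had 18.6% and 19.6% in the control but 14.8% and 1.14% with arsenite. PRKDC and TUBB, a beta-tubulin, had 51.3% and 51.05% in the control but 10.8% and 1.73% with arsenite. These pairs were chosen after the values were seen. Over the 309 genes with no 0 and a control heavy share from 45% to under 55%, the arsenite heavy share had a median of 3.28% and ran from 0.977% to 10.8%. The 1106 genes from 25% to under 35% had a median of 3.01%, and the 3914 genes from 5% to under 10% had one of 2.004%. Within the 2347 heavy genes the Spearman correlation between control and arsenite heavy share was 0.10, a description over a restricted range of control shares.

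Among heavy genes, those with high and with low arsenite shares differed in length. Lengths were taken from 1 annotated coding transcript per gene (GENCODE release 29) for 13039 of the 13148 genes. With at least 25% in the control, 327 genes (13.9%) had at least 5% with arsenite, against 5.77% of all genes, and 112 (4.77%) had under 1.5%, against 24.6% of all genes. These 2 limits were chosen after the values were seen. The 327 genes had a median coding sequence of 5481 nt and a median mRNA of 8509.5 nt, and the 112 had 1683 nt and 2660 nt. Over all heavy genes the medians were 2704.5 nt and 4609.5 nt. The median 3′ untranslated region was 1860 nt in the 327 genes, 479 nt in the 112 and 1190 nt in all heavy genes. The median 5′ untranslated regions were 200.5, 221 and 206 nt, and the GC content of the coding sequence had medians of 50.04%, 56.4% and 49.5%.

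In the control the heavy share followed the coding sequence and hardly the 3′ untranslated region. Across 13039 genes its Spearman correlation was 0.61 with coding length, 0.11 with 3′ untranslated length and 0.42 with the length of the whole mRNA. With arsenite the 3 values were 0.57, 0.41 and 0.64. The log2 ratio of arsenite to control went the other way, with a correlation of −0.36 with coding length over all genes. Within the heavy genes that correlation was 0.39. Longer coding sequences thus had higher heavy shares in both gradients, but over all genes a lower ratio. The points share libraries and length is related to read number, so these are descriptions only. From the shortest to the longest of 10 equal groups of genes by coding length, the median control heavy share rose from 4.63% to 27.4% and the median arsenite heavy share from 1.18% to 4.07%. By 3′ untranslated length the control median went from 8.51% to 11.5%, and the arsenite median from 1.49% to 3.17%. Of the genes in the shortest of 10 groups by 3′ untranslated length 253 were listed at 0 somewhere in the 16 libraries, against 85 in the longest, and the part of depth in these gradients was not tested.

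The 3′ untranslated pattern was also present among genes of similar coding length. In 5 equal groups by coding length of the genes with no 0, of 2300 to 2316 genes each, the Spearman correlation of 3′ untranslated length with the arsenite heavy share was 0.57, 0.52, 0.51, 0.42 and 0.33 from the shortest to the longest group. With the control heavy share it was 0.21, 0.09, −0.03, −0.04 and −0.06. Within the heavy genes, mRNA length had a correlation of 0.62 with the arsenite heavy share and of 0.02 with the control heavy share (n = 2332). With size factors, which keep the same 2332 genes, these values were 0.54 and 0.13. Heavy genes were chosen by their control share, which restricts its range and lowers its correlations. The arsenite and control values within the heavy genes therefore cannot be compared. Over all genes as deposited they were 0.64 and 0.42.

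**Figure D3:**
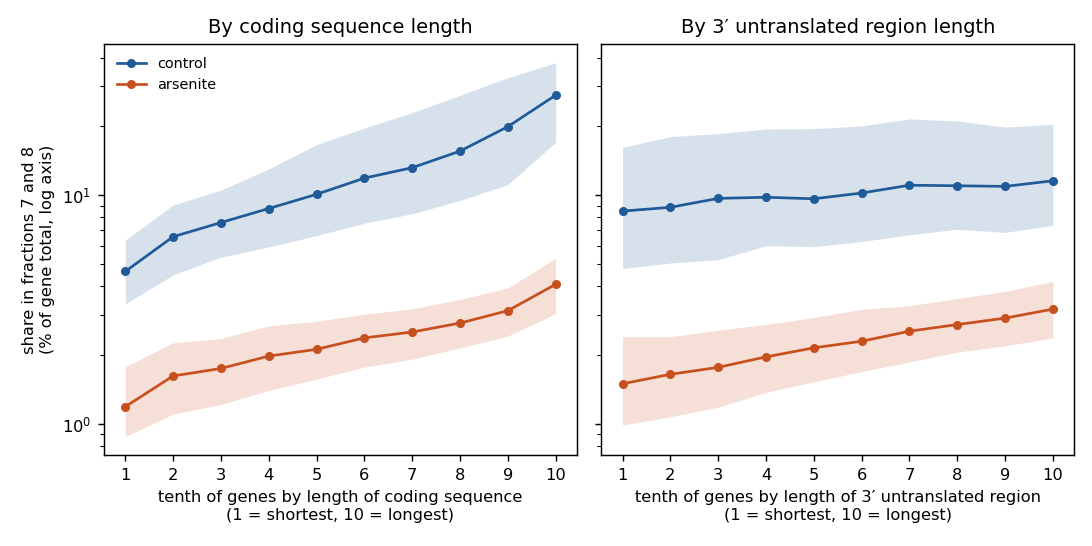
Median heavy share (points, log axis) and quartiles over genes (bands) in the control (blue) and with arsenite (orange), for 10 equal groups of genes by length of the coding sequence (left) and of the 3′ untranslated region (right). Both gradients rise with coding length; with 3′ untranslated length the arsenite median rises from 1.49% to 3.17% and the control median from 8.51% to 11.5%.

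Very long coding sequences made up the list with the highest arsenite heavy shares. Of its 54 measured members, 42 had at least 25% in the control and 42 had at least 5% with arsenite, against 17.9% and 5.77% of all genes. The median heavy share was 37.9% in the control and 6.11% with arsenite. No member with 25% kept the heavy share, 34 lost it and 8 lay between, where 97.1% of all heavy genes lost it. SYNE1, the partner of SYNE2 at the nuclear envelope, had 20.9% and 13.4% in control fractions 7 and 8 and 7.44% and 2.03% with arsenite. AKAP9, a scaffold of the centrosome and Golgi, had the lowest log2 ratio of the list at −3.54, with 45.03% in the control and 2.95% with arsenite. TTN, the giant muscle protein, stood at 1.06% and 10.8%, but it was listed at 0 in 3 libraries, control fraction 7 among them. The part of the heavy share that lay in fraction 8 had a median of 36.0% for this list in the control, against 22.2% for all genes, and of 26.2% with arsenite, against 34.7%.

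Among 37 kinesins and dyneins, the microtubule motors, 22 had at least 25% in the control, against 17.9% of all genes, and 12 had at least 5% with arsenite, against 5.77%. The mitotic kinesin KIF20A went from 56.2% to 2.31%, and KIF3B, a transport kinesin, from 10.1% to 5.06%. Receptors and large surface proteins had medians of 29.8% and 3.95% over 33 genes, with 20 at 25% or more in the control. The low-density lipoprotein receptor relative LRP8 went from 8.18% to 4.09% and the adhesion molecule NCAM1 from 54.6% to 3.33%. Extracellular matrix and integrin mRNAs had medians of 39.98% and 3.64% over 37 genes, with 29 heavy in the control. All heavy members of these 3 lists lost the share, as did 97.1% of all heavy genes, so nothing about the lists is read from that count. ITGB3, an integrin beta chain, had 7.39% and 2.22% in the control and 4.42% and 1.51% with arsenite. These 4 lists of mostly long mRNAs lay above the all-gene median in both gradients, and did so with size factors too.

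A set of 7 lists lay above the all-gene median in the control and below it with arsenite. Each had a median mRNA length below the 3288 nt of all genes. The set is not complete. Sterol synthesis, immediate-early genes, and chaperones and translocation of the endoplasmic reticulum, described below, crossed likewise with median mRNAs below that length. With size factors the arsenite median of these chaperones lay just above that of all genes. The control median of the translocation list lay below that of all genes with fraction 8 alone and with genes that have no 0. That of the immediate-early list lay just below it with fraction 8 alone. The HSP70, HSP90 and HSP110 list, with a median mRNA of 2674 nt, lay above the all-gene median in both gradients. Glycolytic enzymes had a median heavy share of 39.0% over 16 genes in the control and of 1.44% with arsenite. Of the 16, 11 had at least 25% in the control, against 17.9% of all genes, and 9 lay under 1.5% with arsenite, against 24.6%. ENO1, enolase, had 43.8% and 5.40% in the control and 0.852% and 0.484% with arsenite. GAPDH had 15.7% and 2.74% against 0.515% and 0.402%. TPI1, triosephosphate isomerase, had the highest log2 ratio of the list at −2.09, from 8.24% to 1.18%. HK2, a hexokinase with the highest control share of the list, had the highest arsenite share too, at 60.0% and 3.76%.

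The same crossing held for the medians of 13 tubulin and actin genes (24.0% and 1.23%), 30 proteasome subunits (13.0% and 1.22%), 20 aminoacyl-tRNA synthetases (35.5% and 1.96%), 10 chaperonin genes (36.4% and 2.05%), 34 cell cycle genes (21.5% and 2.01%) and 21 elongation factor and other TOP mRNAs (19.03% and 1.67%). Each of these medians stayed on its side with size factors. In this order 6, 3, 15, 8, 14 and 7 members were heavy in the control. These were 46.2%, 10%, 75%, 80%, 41.2% and 33.3% of the measured members, against 17.9% of all genes. All of these heavy members lost the share, a count near the 97.1% of all heavy genes. ACTB had 16.6% and 2.998% in control fractions 7 and 8 and 0.613% and 0.530% with arsenite. EEF1A1, the elongation factor that delivers aminoacyl-tRNA, had 28.4% and 3.79% against 1.70% and 0.952%. The intermediate filament VIM went from 56.4% to 1.798% and TPT1, a TOP mRNA with a short coding sequence, from 3.12% to 1.42%. Within the cell cycle list CDK6, a G1 kinase, stood at the other end from CDC25C, with 10.8% and 4.996%.

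**Figure D4:**
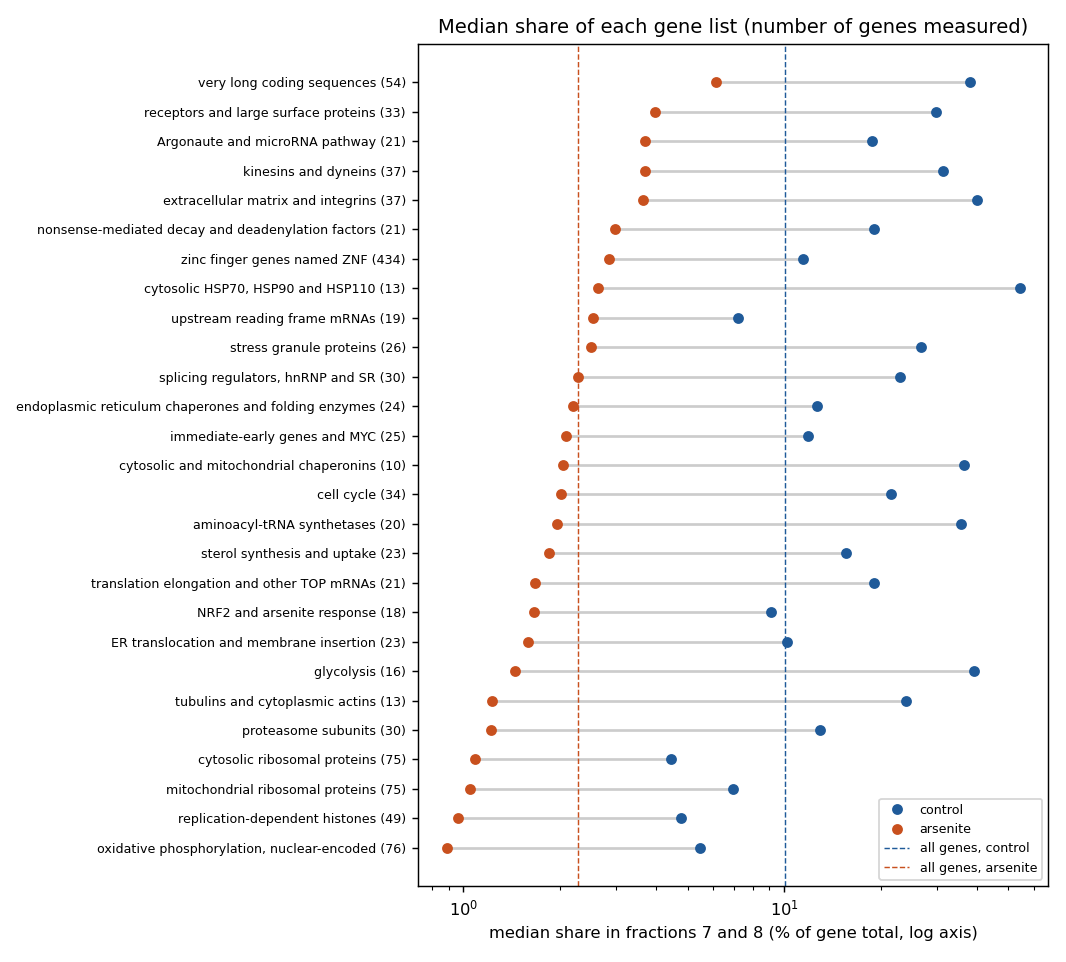
Median heavy share (percent of the gene's total, log axis) of each of the 27 gene lists in the control (blue) and with arsenite (orange), ordered by the arsenite value, with the number of genes measured. Dashed lines mark the medians over all genes, 10.1% and 2.28%. Very long coding sequences lie highest with arsenite, at 6.11%, and subunits of oxidative phosphorylation lowest, at 0.889%.

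The lists with the shortest coding sequences had low heavy shares in both gradients. Cytosolic ribosomal protein mRNAs had medians of 4.43% and 1.09% over 75 genes. None reached 25% in the control, against 17.9% of all genes, and 67 were under 1.5% with arsenite, against 24.6% of all genes. RPL4, with the longest coding sequence of them, went from 11.7% to 1.53%, and RPS29, with one of the shortest, from 1.88% to 1.26%. Mitochondrial ribosomal proteins had medians of 6.94% and 1.05% over 75 genes, nuclear-encoded subunits of oxidative phosphorylation 5.46% and 0.889% over 76, and replication-dependent histones 4.76% and 0.965% over 49. With arsenite 61, 68 and 49 of them were under 1.5%. In the control 4 subunits of oxidative phosphorylation (NDUFS1, SDHA, ATP5A1 and UQCRC2) and 1 mitochondrial ribosomal protein (MRPS31) were heavy. These were 5.26% and 1.33% of the measured members, against 17.9% of all genes. ATP5A1, the alpha subunit of ATP synthase, had 35.8% in the control and 1.69% with arsenite. Single histone members are uncertain because their sequences are nearly alike.

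Cytosolic HSP70, HSP90 and HSP110 genes had the highest control heavy shares of any list, with a median of 54.3% over 13 genes. Of these, 11 (84.6%) had 25% or more, against 17.9% of all genes. As with 97.1% of all heavy genes, all 11 lost the heavy share, and the list's arsenite median was 2.63%. HSPA8, the constitutive HSP70, had 49.1% and 12.4% in control fractions 7 and 8 and 1.60% and 0.977% with arsenite. Chaperones and folding enzymes of the endoplasmic reticulum had medians of 12.7% and 2.19% over 24 genes, with 7 of 7 heavy members lost. HSPA5, the HSP70 of this compartment, had 45.9% and 11.4% against 2.19% and 1.08%. HSP90B1, its HSP90, had 28.8% and 8.55% against 1.76% and 1.06%. CALR, a calcium-binding lectin chaperone, went from 16.2% to 1.61%, and EDEM1, which sends misfolded glycoproteins to degradation, from 8.56% to 4.38%.

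These chaperone families hold close relatives that differ in whether the coding sequence opens with a signal for the endoplasmic reticulum, and their first 120 coding bases are shown because mRNAs with such a signal are translated on a membrane. Capitals mark the codons of the most hydrophobic stretch of 11 residues where its mean Kyte-Doolittle hydropathy was at least 2. The sequences, 5′ to 3′, come from the GENCODE release 29 transcripts, on chromosomes 6, 14, 12, 11 and 9 in this order.
HSP90AB1: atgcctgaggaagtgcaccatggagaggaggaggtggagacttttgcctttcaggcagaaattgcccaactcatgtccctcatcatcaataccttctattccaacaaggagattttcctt
HSP90AA1: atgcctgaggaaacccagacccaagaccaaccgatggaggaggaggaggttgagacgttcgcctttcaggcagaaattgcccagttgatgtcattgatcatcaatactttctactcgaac
HSP90B1: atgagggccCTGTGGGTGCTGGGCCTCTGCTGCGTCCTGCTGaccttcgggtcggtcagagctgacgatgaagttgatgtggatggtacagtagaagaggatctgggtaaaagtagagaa
HSPA8: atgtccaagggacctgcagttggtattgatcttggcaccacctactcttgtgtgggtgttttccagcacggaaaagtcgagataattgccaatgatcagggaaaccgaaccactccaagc
HSPA5: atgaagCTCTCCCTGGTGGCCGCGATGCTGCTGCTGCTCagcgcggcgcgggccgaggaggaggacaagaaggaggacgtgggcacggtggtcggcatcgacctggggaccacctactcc
HSP90B1 and HSPA5 opened with such a stretch, and HSP90AB1, HSP90AA1 and HSPA8 did not. The heavy shares with arsenite were 2.82% and 3.27% for the first 2 and 2.63%, 3.26% and 2.58% for the other 3, and those in the control were 37.3% and 57.3% against 68.3%, 50.6% and 61.5%. The arsenite values of the 2 kinds thus overlapped.

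Over all genes a hydrophobic start made little difference to the medians. The 2251 genes with a stretch of this kind within residues 2 to 40 had a median control heavy share of 9.48% and a median arsenite heavy share of 2.26%, and the 10788 without had 10.2% and 2.29%. Their median coding lengths were 1389 and 1440 nt. Among heavy genes the arsenite medians were 3.14% for 353 genes with the stretch and 3.11% for 1979 without. A hydrophobic start marks many but not all proteins of the endoplasmic reticulum route, and it also includes some mitochondrial proteins.

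The median of the 19 mRNAs with upstream reading frames lay below that of all genes in the control, at 7.17%, and above it with arsenite, at 2.54%. These sides were the same with size factors. Of the 19 members, 5 lay above the all-gene median in the control and 11 with arsenite. The list was drawn up with earlier results of these data known. ATF4, the transcription factor of the integrated stress response, had 2.46% and 0.998% in control fractions 7 and 8 and 1.899% and 1.12% with arsenite. Its heavy share of 3.45% in the control and 3.02% with arsenite was thus nearly level in 2 gradients in which the median gene had 20.5% of its control share left. DDIT3, a further transcription factor of this response, had 1.57% and 1.45% against 1.46% and 0.576%. PPP1R15A, which directs the phosphatase that resets eIF2 alpha, had 6.59% and 1.19% against 2.67% and 1.34%. ATF5 went from 5.76% to 2.49%. ATF4 and PPP1R15A had a higher share in fraction 8 with arsenite than without, and all 4 genes had a lower one in fraction 7. At the other end KDM4A, a histone demethylase, went from 42.1% to 2.56%, and EPRS, a tRNA synthetase, from 47.7% to 3.70%. In all, 3 of the 19 (15.8%) were heavy in the control, against 17.9% of all genes. All 3 lost the heavy share, as did 97.1% of all heavy genes, so neither count is a result about the list. None of the 19 had a log2 ratio of 1 or more, against 1.19% of all genes.

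The other lists concern stress and regulation. Argonaute and microRNA pathway genes had medians of 18.8% and 3.69% over 21 genes, and EIF2C2, which encodes Argonaute 2, had 8.16% and 2.63% in the control and 3.19% and 1.25% with arsenite. EIF2C4 went from 7.34% to 4.16% and the helicase MOV10 from 38.1% to 1.92%. These 2 genes were named for the highest and the lowest log2 ratio of the list, so their contrast is not a result about it. Stress granule protein genes had medians of 26.8% and 2.497% over 26 genes, from G3BP1 (56.6% and 2.35%), which nucleates the granules, to the repressor PUM2 (9.04% and 4.87%). Nonsense-mediated decay and deadenylation factors had medians of 19.04% and 2.98% over 21 genes, and hnRNP and SR splicing regulators 23.0% and 2.28% over 30. In the immediate-early list, with medians of 11.8% and 2.09% over 25 genes, MYC had 24.9% and 4.33% in control fractions 7 and 8 and 1.51% and 0.910% with arsenite. NRF2 and arsenite response genes had medians of 9.11% and 1.66% over 18 genes, but with size factors the control median of this list lay just above that of all genes. SRXN1, which repairs peroxiredoxins, went from 4.44% to 2.76%. The sterol synthesis list had 15.6% and 1.85% over 23 genes, and the translocation list of the endoplasmic reticulum 10.2% and 1.59% over 23. INSIG1, a sterol sensor partner, went from 5.01% to 2.64%, DHCR7, the last enzyme of cholesterol synthesis, from 41.1% to 1.47%, and the oligosaccharyltransferase subunit STT3A from 40.9% to 1.65%.

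Zinc finger genes named ZNF, mostly transcriptional repressors, had medians of 11.5% and 2.84% over 434 genes. Of these, 29 (6.68%) had at least 25% in the control, against 17.9% of all genes. The heavy share was lost by 27 of the 29, where 97.1% of all heavy genes lost it. With arsenite 328 lay above the all-gene median. The control median was just above that of all genes, but below it when fraction 6 was added. ZNF622, a ribosome maturation factor despite its name, went from 46.9% to 2.62%, and ZNF286B from 5.64% to 7.59%. ZNF286B has a close copy, so its value is uncertain.

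A log2 ratio of 1 or more was found for 156 genes (1.19%) as deposited, for 1339 with size factors and for 1528 relative to the median gene. Of the 156 genes, 155 were listed at 0 in at least 1 of the 16 libraries. The median control heavy share of the 156 was 0 and their median arsenite heavy share 2.82%. The 1 gene with no 0 was UNC5CL, an adaptor protein of the death domain family, with 0.941% and 0.243% in the control and 2.58% and 1.63% with arsenite. The next largest rises in percentage points among genes with no 0 were those of SOWAHA (2.54% to 5.03%), ZNF286B, C19orf26 (3.32% to 4.81%), MXD3 (2.13% to 3.55%), CACNB4 (1.97% to 3.30%), POU6F1 (1.63% to 2.91%), FOXD4 (3.45% to 4.73%), WNT16 (3.55% to 4.79%) and FAM149A (0.692% to 1.93%). In all, 70 genes with no 0 had a higher heavy share with arsenite by any amount. UNC5CL and SOWAHA were higher with arsenite in both fractions, whereas C19orf26 and WNT16 were higher in fraction 8 only. The part of the control heavy share in fraction 8 was 20.511% in both UNC5CL and MXD3. It was 11.427% in both C19orf26 and WNT16, and 50.79% in both SOWAHA and FOXD4. Whether few reads lay behind these equal values was not tested, so the rises of these genes and their split by fraction are uncertain.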

How the data were processed

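293S total RNA was extracted from gradient fractions with Trizol and made into libraries by the NSR method, per the labels' protocols. The authors deposited 1 table of 13148 genes. Its library columns hold the fraction (0 to 1) of a gene's total in each of 8 gradient fractions, and the 8 values sum to 1 within 2.2e-15. They refer to exons of RefSeq genes, per the file headers, on build hg19, per the submitters' processing notes. The sources used here do not give the aligner, counting, strand, gene filter or scaling between gradient fractions. A further 3 deposited score columns hold mean fraction numbers, which were checked (largest difference 1.5e-14) and not used further. Each treatment and fraction has 1 library, grouped by title.

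Shares of fractions 7 and 8 were summed in percent. Log2 ratios used a pseudocount of 1 percentage point. A gene was heavy at 25%, kept at a log2 ratio of −1 or more, lost at −2 or less, and higher at 1 or more. No test was possible. Genes are called listed at 0 where the file has an exact 0, and 1523 genes had a 0 in at least 1 of the 16 libraries. The code for these calls was tested on simulated shares. The genes, the 27 lists and the rules were chosen with earlier results of these data known. Named genes were, among those with no 0, the 10 highest in control share, in arsenite share and in rise, the 10 highest and lowest log2 ratios of heavy genes, the highest and lowest log2 ratio of each list, and 18 single genes; others were named after their values were seen. Some genes that meet the rule are not reported here. Lengths came from the principal GENCODE release 29 transcript by symbol (13039 genes, 99.2%, 722 by an older symbol), or the longest coding transcript where the principal had under 50% of that length. Among transcripts of equal rank the longest coding sequence was taken, and then the longest mRNA, which favours long untranslated regions. The GENCODE annotation is on another build, so no coordinates are given. Tools were Python 3.11.15, pandas 2.3.3, numpy 2.4.6 and scipy 1.17.1.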

Additional observations from a re-analysis of the deposited data

How the results depend on the processing

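The median log2 ratio was −1.80, and it was −2.21 and −1.05 with pseudocounts of 0.1 and 5 percentage points, −0.89 with fraction 8 alone, −2.12 with fractions 6 to 8 and −0.046 with size factors, which remove a common fall by construction. For other sets of fractions the limit for heavy genes was changed together with the set, to an even spread over it (1 of 8 fractions for a single fraction, 3 of 8 for fractions 6 to 8), so the effects of both choices are not separated. Heavy genes numbered 2347, against 4222 with fraction 7 alone, 258 with fraction 8 alone, 4715 with fractions 6 to 8, 5283 with size factors, and 6620 and 752 with limits of 10% and 40%. In the same order, genes that kept the share numbered 5, against 11, 0, 25, 3842, 87 and 1, and genes that lost it 2280, against 3930, 253, 4089, 67, 4942 and 750. With genes that have no 0, none kept the share. Relative to the median gene 27 kept it, and when both fractions had to meet the limit 3 kept it and 950 lost it. The 156 genes with a higher share were 26 with the pseudocount of 5, 238 with fraction 7, 1339 with size factors, 1 with no 0, 1528 relative to the median gene and 31 when both fractions had to meet the limit. The correlation of coding length with control share was 0.61 and was 0.46 with fractions 6 to 8, and that of mRNA length with arsenite share was 0.64 and was 0.54 with fraction 8 alone. In relative log2 ratio, with fractions 6 to 8 the lists of very long coding sequences (−0.59 to 0.68), kinesins and dyneins (−0.89 to 0.076) and decay factors (−0.55 to 0.043) turned sign, as did TUBG2 (1.20 to −0.25). The number of lists with a median below that of all genes, 21 of 27, stayed from 20 to 23. No paired analysis was possible because every group has 1 library. Depth is unknown, which limits all shares near 0.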
